A study of Mus musculus with 4 samples.

Results

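The tubulin tyrosine ligase-like enzymes add glutamate or glycine side chains to the tubulin of microtubules, and 9 genes of this pathway were examined in the early mouse embryo: Ttll1, Ttll3, Ttll4, Ttll5, Ttll6, Ttll7, Ttll9, Ttll12 and Agbl2, a carboxypeptidase gene. They were found by gene name or accession among 41174 gene probes, which gave 21 probes for the 9 genes, and all 9 were among the 18615 genes measured. RNA came from node-containing distal pieces of embryos on a Sv129/CD-1 hybrid background at the early headfold stage (~E7.75) that were homozygous (Noto GFP/GFP) or heterozygous (Noto GFP/+) for a GFP insertion. Noto, the gene it interrupts, encodes a homeobox factor active in the node and the notochord. Both genotypes therefore carried at least 1 GFP allele, and no wild-type embryos were compared. Pools held 120 to 150 pieces, and the labels do not agree on the size of the piece. The series screens for genes downstream of FOXJ1, the transcription factor of motile cilia. Homozygous and heterozygous RNA shared each of 2 two-colour Agilent arrays, the second a technical repeat with the dyes exchanged, so the 4 samples come from 1 pool per genotype. With 1 pool per genotype no significance test was made, and the SD given is that of 2 arrays and measures technical spread only.

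Tubulin in the axoneme, the microtubule core of a cilium, carries chains of glutamate and glycine that are written after the microtubule has formed. Some enzymes of the family start a chain on a glutamate of the tubulin tail, others lengthen it, and cytosolic carboxypeptidases shorten it again. The marks are known to tune the beat of motile cilia and flagella, and in the embryo the motile cilia of the node drive the leftward flow that sets the left-right axis.

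Levels are log2 intensities after background correction and normalization, and they are set side by side only within a probe. A ratio is the log2 level in the homozygote minus that in the heterozygote on the same array. Probes well above background on each array, in either genotype, were taken as measured, which left 16 of the 21, and the brightest of them stands for its gene. A gene is called lower or higher where it differs by at least 1.5-fold in the same direction on both arrays. Of the 9 genes 1 was lower, Ttll6, and 0 were higher. Over all measured genes 2.35% were lower and 0.0591% were higher by the same rule. The median ratio of the 9 genes was -0.05 (0.08 on array 1 and -0.07 on array 2), against -0.02 over all measured genes.

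Ttll6 encodes a polyglutamylase that lengthens glutamate chains on ciliary tubulin, and its ratio of homozygote over heterozygote was the lowest of the 9. Its 1 probe lies on chromosome 11 on the probe coordinates of mouse build mm8. The probe is shown because the call rests on it alone; it is printed 5′ to 3′ in lower case as deposited, with no part set apart.
Ttll6, chr11:95981455-95981514, + strand: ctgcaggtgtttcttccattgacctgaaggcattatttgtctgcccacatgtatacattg
The log2 level of Ttll6 was 7.91 and 7.66 in the homozygous pool on arrays 1 and 2, against 8.51 and 8.55 in the heterozygous pool. Both homozygous values lay below both heterozygous ones, and the heterozygous values of the 2 arrays were the closer pair. The ratios were -0.60 and -0.89, with a mean of -0.75 ± 0.20 (SD over 2 arrays), a level 1.68-fold lower in the homozygote (1.52-fold on array 1 and 1.85-fold on array 2). Among all measured genes 16.6% had both homozygous levels below both heterozygous ones, and 10.7% had both above. In bulk RNA, fewer cells that express a gene and less of its RNA per cell cannot be told apart.

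The Ttll6 spot was dim but well above background in both genotypes on both arrays. Before dye normalization its foreground intensities were 260 and 214 in the homozygote over backgrounds of 61 and 68. Those of the heterozygote were 287 and 611 over 45 and 71, and raw intensities of different dyes are not on a common scale. Of all measured genes 17.7% were dimmer than Ttll6. Among the 1000 genes nearest to it in brightness 5.5% were lower by the same rule, a share above that of all genes. In the authors' deposited table of values, Ttll6 read 60.4 and 39.4 in the homozygote, against 103 and 90.7 in the heterozygote. Without background correction the ratios were -0.53 and -0.79, and the first missed the 1.5-fold limit, so the call depends on that step. No other probe on the array shared a run of 20 bases with the Ttll6 probe, in either orientation.

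**Figure D1:**
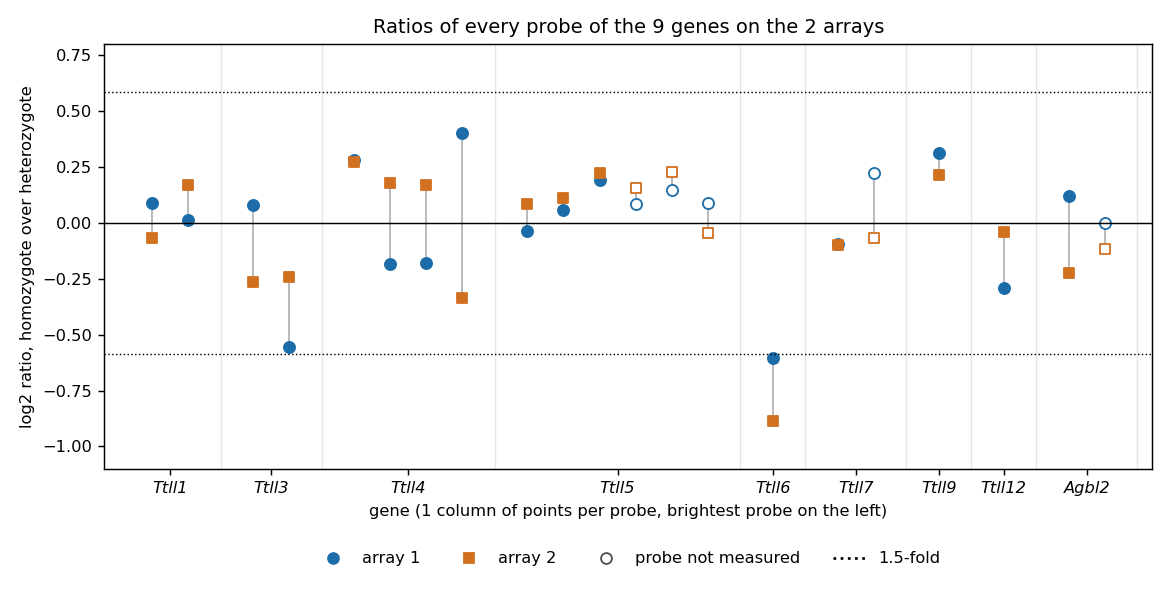
Log2 ratio of homozygote over heterozygote for each of the 21 probes of the 9 genes, with array 1 as circles and array 2 as squares; open symbols mark the 5 probes that were not measured and dotted lines mark 1.5-fold. The Ttll6 probe lies below the lower line on both arrays (-0.60 and -0.89), the dimmer Ttll3 probe lies just inside it on array 1 (-0.55), and 3 of the 4 Ttll4 probes change sign between arrays.

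Foxj1 and tissue markers were read on the same arrays. Foxj1, the ciliogenic factor of the study and also among the node markers, had ratios of -0.59 and -0.46, with no overlap of the genotypes. It passed the 1.5-fold limit on array 1 alone and was not called. Of 24 markers of node, germ layers, blood and trophoblast, all were well above background in both genotypes on both arrays. The summed linear levels of the 7 node and midline markers were 122265 and 128336 in the homozygote, against 123865 and 111699 in the heterozygote, and overlapped. Single node markers differed from the sum, which the bright Foxa2 and T make up for the most part: Shh had ratios of -0.40 and -0.49, and T of 0.32 and 0.34, each with no overlap of the genotypes. Those of the 3 blood markers were 5027 and 4358 in the homozygote, against 11858 and 9211 in the heterozygote. That difference is one of the globins, since the third blood marker, Gata1, had ratios of 0.28 and 0.13. The adult globins Hbb-bt and Hba-a1 and the somite factor Meox1 were the 3 markers called lower, and the decidual hormone Prl8a2 was the 1 called higher. These counts of 24 stand beside 2.35% lower and 0.0591% higher over all measured genes. In the mesoderm list, Tbx1 (-0.42 and -0.40) lay on the side of Meox1, while Mesp1 (0.13 and 0.02) and Tbx6 (0.16 and -0.04) did not. In the list of Prl8a2, Prl3d1 (0.42 and 0.30) lay on its side and Plet1 (-0.40 and -0.66) on the opposite side. None of these others was called. Sums for ectoderm (19721 and 19087 in the homozygote, against 25169 and 20125 in the heterozygote) lay apart as well. So, narrowly, did those for endoderm, at 136804 and 129089 in the homozygote, against 128394 and 120374 in the heterozygote. Within the endoderm list Cer1 had ratios of 0.21 and 0.21. Those of Afp (0.03 and 0.01) and of the brightest Sox17 probe (0.01 and 0.10) were smaller, and Ttr changed sign (0.17 and -0.04). The mesoderm sums overlapped, at 151060 and 167107 in the homozygote, against 146722 and 178516 in the heterozygote. The trophoblast and decidua sums also overlapped, at 6524 and 4523 in the homozygote, against 6774 and 5611 in the heterozygote. Plet1, the brightest gene of that list, makes up most of these sums, so they hide the higher Prl8a2 and Prl3d1 of the homozygote on both arrays. The part of these shifts in the Ttll6 ratio was not tested.

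The other glutamylases had no call. Ttll1, the catalytic subunit of a polyglutamylase complex that sperm flagella and airway cilia of the mouse need, had levels of 11.96 and 12.07 in the homozygote, against 11.87 and 12.14 in the heterozygote. The genotypes overlapped and the ratios had opposite signs (0.09 and -0.07; mean 0.01 ± 0.11). Its other probe read 0.01 and 0.17.

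Ttll4 starts glutamate chains and also modifies nucleosome assembly proteins, and its 4 probes gave different answers. The brightest read 12.90 and 13.27 in the homozygote, against 12.61 and 13.00 in the heterozygote, with ratios of 0.28 and 0.27 (mean 0.28 ± 0.0051). Within each array the homozygote was higher by 1.21-fold on average, yet the levels of the 2 genotypes overlapped across arrays. The next brightest probes read -0.18 and 0.18, and -0.18 and 0.17, so each changed sign when the dyes were exchanged. The dimmest read 0.40 and -0.33. All 4 were well above background in both genotypes. The mean of the 4 probes was 0.08, so the ratio of 0.28 rests on 1 probe. The 4 are shown because they disagree; they lie on chromosome 1, + strand, build mm8, and do not overlap each other.
Brightest, chr1:74633986-74634045: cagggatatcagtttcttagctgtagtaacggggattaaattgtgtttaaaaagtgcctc
Next, chr1:74629953-74630012: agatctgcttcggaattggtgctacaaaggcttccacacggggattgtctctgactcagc
Next, chr1:74629664-74629723: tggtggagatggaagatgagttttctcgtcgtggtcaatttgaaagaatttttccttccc
Dimmest, chr1:74635982-74636041: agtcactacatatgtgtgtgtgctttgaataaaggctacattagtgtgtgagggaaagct
Their GC content was 38.3%, 51.7%, 41.7% and 40.0% in that order.

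Ttll5 encodes a glutamylase needed for normal sperm motility in the mouse, and it had 6 probes, of which 3 were measured. The brightest read 12.08 and 12.06 in the homozygote, against 12.11 and 11.97 in the heterozygote (ratios -0.04 and 0.08; mean 0.02 ± 0.09), with overlap. A probe 77 bases farther along the chromosome read 0.06 and 0.11, and the third measured probe 0.19 and 0.22. The measured Ttll5 probes thus spread from 0.02 to 0.21 in their means, within 1.5-fold of no difference. The 3 probes that were not measured had mean ratios of 0.12, 0.19 and 0.02.

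Ttll7, a glutamylase that acts on beta tubulin and is known from neurons, had 1 measured probe, with levels of 8.08 and 8.32 in the homozygote, against 8.18 and 8.42 in the heterozygote. The ratios were nearly equal on both arrays, at -0.09 and -0.10 (mean -0.10 ± 0.0041), while the genotypes' levels overlapped across arrays. Its other probe was not well above background in either genotype on either array.

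Ttll9, a glutamylase needed for the sperm flagellum in the mouse, had levels of 8.67 and 9.13 in the homozygote, against 8.36 and 8.92 in the heterozygote. Its 1 probe gave ratios of 0.31 and 0.22 (mean 0.26 ± 0.07), both above 0, and the levels of the genotypes overlapped. This probe is split in the genome: its 60 bases span 1539 bases of chromosome 2 (152681531 to 152683069).

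Ttll3 is a glycylase, which attaches the first glycine of a side chain, and its 2 probes differed in size. The brighter read 8.48 and 8.36 in the homozygote, against 8.40 and 8.63 in the heterozygote, with ratios of opposite sign (0.08 and -0.26; mean -0.09 ± 0.24). The dimmer read 7.03 and 7.30 in the homozygote, against 7.58 and 7.55 in the heterozygote, with ratios of -0.55 and -0.24 (mean -0.40 ± 0.22). On the dimmer probe both homozygous levels lay below both heterozygous ones, but the homozygote was not well above background on array 2 and neither ratio reached 1.5-fold. The mean of both probes was -0.24. The pair is shown because the probes disagree, and it lies on chromosome 6, + strand, build mm8.
Brighter, chr6:113375554-113375613: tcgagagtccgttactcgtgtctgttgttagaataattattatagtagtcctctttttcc
Dimmer, chr6:113364955-113365014: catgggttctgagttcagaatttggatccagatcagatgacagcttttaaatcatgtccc

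Ttll12 carries the ligase-like domain, though no glutamylase or glycylase activity is established for it. Its 1 probe was bright, at 14.24 and 14.56 in the homozygote, against 14.53 and 14.60 in the heterozygote. The ratios were -0.29 and -0.04 (mean -0.17 ± 0.18), a difference within the spread between arrays, and the sign of the mean turned with median centring (0.04). Agbl2 encodes a cytosolic carboxypeptidase that removes glutamates from long side chains, opposite in action to the ligases. Its measured probe read 7.64 and 7.60 in the homozygote, against 7.52 and 7.83 in the heterozygote, with ratios of opposite sign (0.12 and -0.22; mean -0.05 ± 0.24). The other Agbl2 probe, not above background on array 2, read -0.0025 and -0.12.

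**Figure D2:**
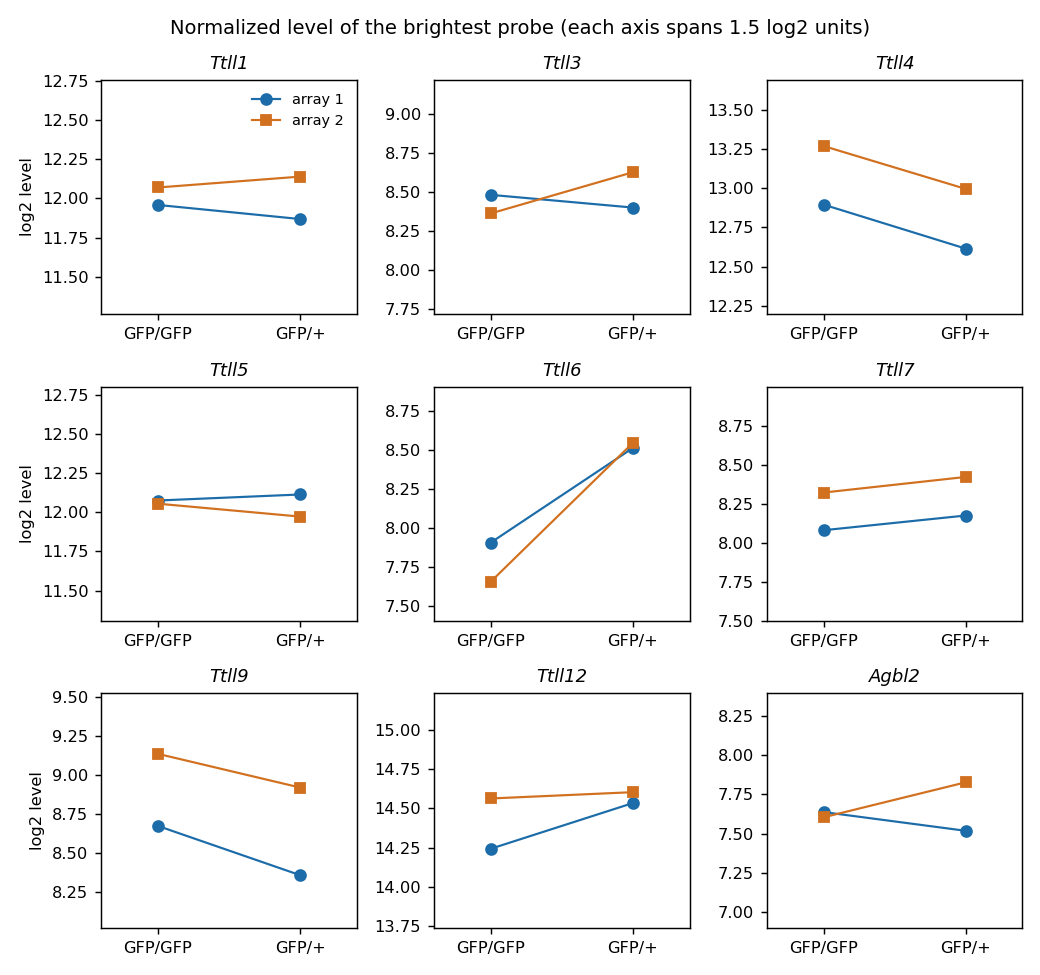
Normalized log2 level of the brightest probe of each of the 9 genes in the homozygous (GFP/GFP, left) and heterozygous (GFP/+, right) pool, with a line per array; levels compare only within a panel. The lines of Ttll6 both rise from homozygote to heterozygote and its genotypes do not overlap, while the lines of Ttll1, Ttll3, Ttll5 and Agbl2 run opposite ways.

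Across the 9 genes, ratios lay below 0 on both arrays for 3 (Ttll6, Ttll7 and Ttll12), above 0 on both for 2 (Ttll4 and Ttll9) and on opposite sides for 4. Among all measured genes 34% lay below 0 on both and 25.7% above 0 on both. On the brightest probes, levels of the genotypes were apart for 1 of the 9, Ttll6. Among all measured genes 16.6% had the homozygous levels below and 10.7% had them above. Dimmer measured probes with levels apart were the other Ttll1 probe and the third Ttll5 probe, with the homozygote above. On the dimmer Ttll3 probe the homozygote lay below. Without Ttll6 the means ran from -0.17 to 0.28, and no single-array ratio of the brightest probes exceeded 1.24-fold in either direction. The mean exceeded the SD over arrays for 4 genes, Ttll4, Ttll6, Ttll7 and Ttll9. The SD of the 9 ranged from 0.0041 to 0.24, around the 0.12 that was the median over all measured genes. By brightness, 4 of the 9 lay above the median measured gene (Ttll1, Ttll4, Ttll5 and Ttll12) and 5 below it. None of the 21 probes shared 20 bases with a probe of another gene, and their GC content ran from 35% to 53.3%.

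**Figure D3:**
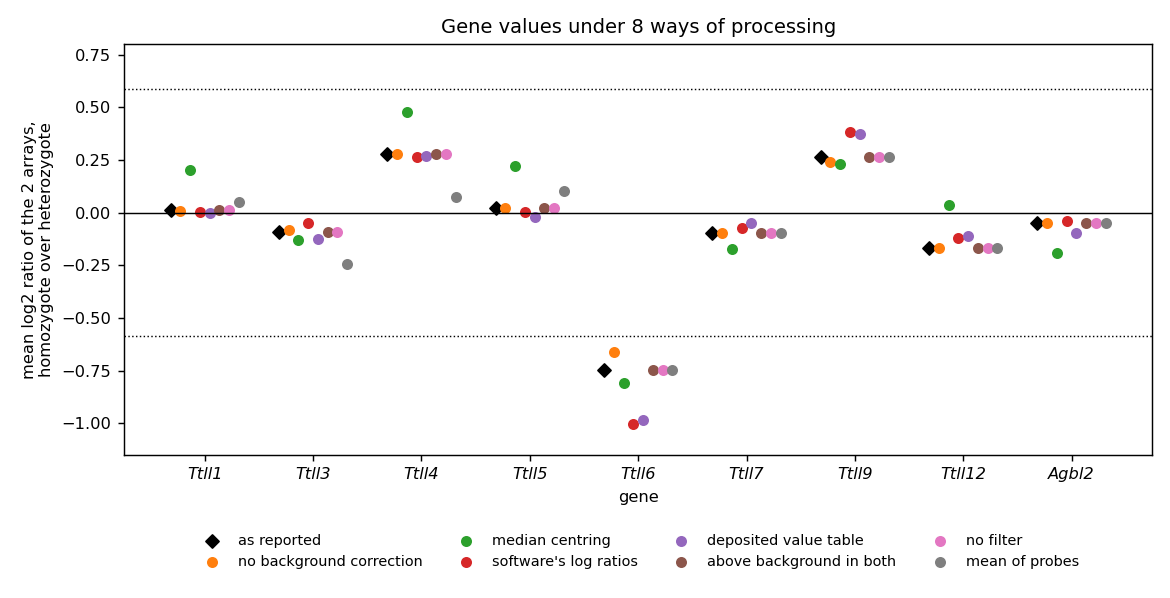
Mean log2 ratio of each gene under the reported processing (diamonds) and 7 alternatives (circles); dotted lines mark 1.5-fold. Ttll6 stays below the lower line in its mean under all 8, from -0.66 to -1.01, and no other gene crosses a line. The filters on dim probes and the mean of probes could not move Ttll6, which has a single bright enough probe.

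Other tubulin genes, in 6 lists of 53 genes, had 43 measured, of which 0 were lower and 0 higher; 11 had ratios below 0 on both arrays and 8 above 0 on both. These counts of 43 stand beside the shares over all measured genes given above, 2.35% lower, 34% below 0 on both and 25.7% above 0 on both. Among other tubulin ligases 3 of 6 were measured (median 0.01). The polyglutamylase Ttll11 read 0.15 ± 0.17 and Ttl, which adds tyrosine back to alpha tubulin, -0.10 ± 0.27. The glycylase genes Ttll8 and Ttll10 were not measured. Of 5 other deglutamylases 3 were measured (median -0.05). Agbl5, which removes the branch-point glutamate, read 0.20 ± 0.12 on its brightest probe and -0.07 on its other one, and Agbl3 read -0.06 ± 0.10.

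All 5 genes of the complex that holds Ttll1 were measured (median -0.01), with Tpgs2 at 0.27 ± 0.02 and 1110051M20Rik, now Cstpp1, at -0.13 ± 0.06. The list of detyrosination and acetylation had 6 of 8 measured (median -0.08). Vash1, a tubulin carboxypeptidase that removes the terminal tyrosine, read -0.25 ± 0.05. Atat1, the alpha tubulin acetyltransferase, read -0.21 ± 0.17 on its brightest probe and 0.02 and 0.08 on the others. The substrates, alpha and beta tubulins, had 13 of 16 measured (median 0.06) with Tubb3 at -0.22 ± 0.04 and Tuba1a at -0.19 ± 0.19; near-identical tubulin copies may share probe signal. Of 13 genes of severing and ciliary motility (median -0.05), Drc3 and Drc1, which encode parts of the nexin-dynein regulatory complex of motile axonemes, read -0.49 ± 0.11 and -0.37 ± 0.13 and were not called. Ttll6 was the 1 gene called among the 52 measured in the family and these lists, a share near that of 2.35% lower over all measured genes.

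**Figure D4:**
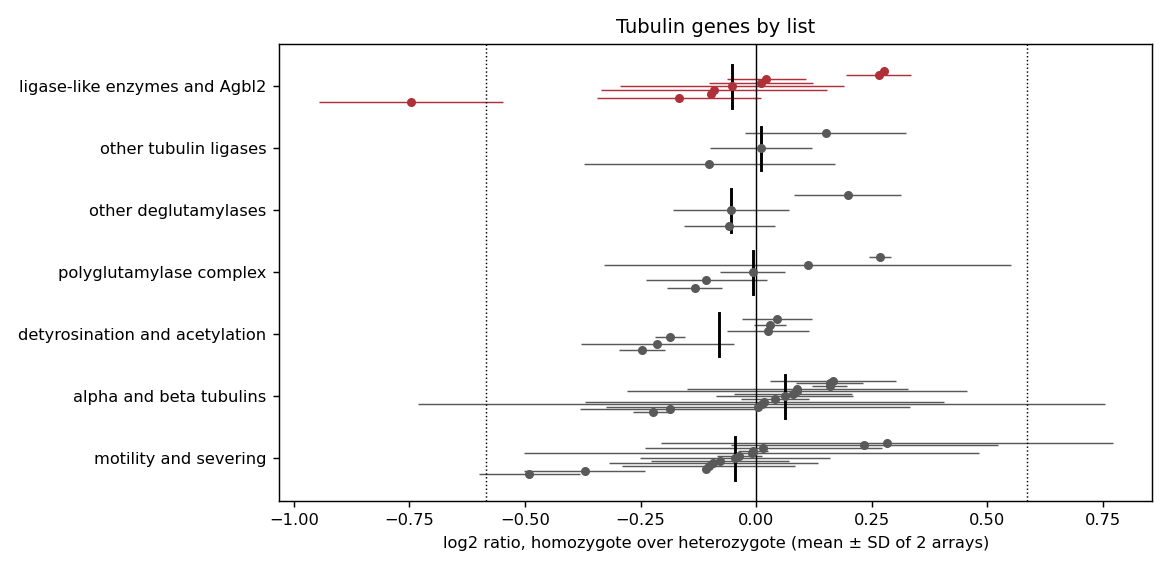
Log2 ratio of each measured gene (mean ± SD over 2 arrays) for the ligase-like enzymes and Agbl2 and for 6 lists of other tubulin genes; vertical bars are medians and dotted lines mark 1.5-fold. Medians lie between -0.08 and 0.06 in all 7 rows, and Ttll6 at -0.75 is the 1 gene beyond a dotted line.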

How the data were processed

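Per the file headers, the authors read each array with Agilent Feature Extraction (9.5.3.1 in the submitters' processing notes), which wrote foreground and background intensity per spot, processed intensity per dye and, for each spot, the log10 of processed red over green. The deposited flags of spots above background, saturated or outlying have unit other in the record of columns. The authors' value table holds intensity per sample, floored at 15, with column medians of 109.6 and 95.1 (homozygote, arrays 1 and 2) and 110.6 and 96.2 (heterozygote); its scaling is unstated. The files of the 2 samples of an array were identical, so each was read once; each array is its own slide and scan and holds both genotypes.

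With limma 3.58.1 (R 4.3.3), intensities of 43379 gene spots were corrected by normexp (offset 50) and loess within arrays, control spots at weight 0; 179 and 165 outlier spots were left out. Levels also had Aquantile. The code was tested on simulated data. Well above background were 81.5% and 64.0% of homozygote spots and 77.7% and 68.1% of heterozygote spots; 0 were saturated. The number of arrays limits the precision. Array 2 was turned by the labels' dyes. Probes were named by accession or symbol through RefSeq (GRCm38.p6); 8065 of 41174 kept the name in the file. Python 3.11.15, numpy 2.4.6, pandas 2.3.3 and matplotlib 3.10.9 made summaries and plots.

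The members and lists were chosen with earlier results of these data known. All 9 genes are named with every probe, and of each list called members, up to 4, or with fewer than 2 called the 2 measured members farthest from 0. The share called among genes nearest in brightness was added after seeing the data. Noto was not analysed here. RefSeq promoters were not used.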

Additional observations from a re-analysis of the deposited data

How the results depend on the processing

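With 1 pool per genotype and a technical pair of arrays, the values limit what can be said to these 2 pools, and dim probes limit it further. No paired analysis was possible because no test was made; each ratio already pairs both genotypes within an array. The count of lower genes among the 9 was 1, but 0 without background correction, where Ttll6 missed on array 1, and 0 with array 2 left unturned, which counts genes that follow the dye. It was 1 with median centring, the value table, the software's log ratios, both filters on dim probes and the mean of probes. Neither those filters nor the mean of probes could change Ttll6, whose only probe was well above background in both genotypes on both arrays. The value table and the software's log ratios gave Ttll6 the same ratio on array 1 (-0.77) and near ones on array 2 (-1.20 and -1.24). They are not taken as separate checks. The count of higher genes was 0 throughout. Without replicate 1 or 2, that is on 1 array alone, the median of the 9 ranged from -0.069 to 0.081, and the count called among the other tubulin genes from 0 to 1, the 1 being Fign at 0.63 on array 2, chosen after its value was seen. The other counts did not change on 1 array.

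Ttll6 read -0.66 without background correction, -0.81 with median centring, -1.01 with the software's log ratios and -0.99 with the value table. Over the 7 settings that keep both arrays, 14 single gene values moved beyond the gene's own SD over the 2 arrays and 49 did not. The 14 include small shifts of Ttll4 and Ttll7, whose SD was only 0.0051 and 0.0041. With the value table, Ttll4 counts as moved at 0.268, against 0.278 as reported. The 49 include values that could not move. Both filters on dim probes kept the same brightest probe for all 9 genes, and the mean of probes changes nothing for the 5 genes with 1 measured probe. Median centring shifted the median of all genes to 0.12 (0.39 on array 1 and -0.16 on array 2); there Ttll4 read 0.48 and Ttll12 0.04. Over all genes, 437 were lower and 11 higher, against 714 and 101 with the software's log ratios, 651 and 95 with the value table, 945 and 113 on array 2 alone, 645 and 124 on array 1 alone and 4 and 10 with array 2 unturned. The causes of these shifts were not tested.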
